A study of Mus musculus with 16 samples.

Results

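The genes described here were 10 components of the basement membrane: the collagen IV chains *Col4a1* and *Col4a2*, the laminin α chains *Lama1*, *Lama4*, and *Lama5*, the laminin β chain *Lamb1*, the laminin γ chain *Lamc1*, the nidogens *Nid1* and *Nid2*, and the heparan sulfate proteoglycan *Hspg2* (perlecan). They were listed by name, with no threshold on a measured value but with earlier results of these data known, and were matched through Ensembl identifiers to mouse symbols. All 10 were among the 29632 entries of the single-cell table and among the 13372 genes that passed the filter on low counts there.

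The cells came from ScxGFP iPSCs, induced pluripotent stem cells made from embryos that carry a GFP transgene driven by the *Scx* promoter. T0 cells were mesodermal cells induced from these iPSCs, without TGF-β2. T3, T6, and T9 cells were T0 cells cultured for 3, 6, or 9 days with 10 ng/ml recombinant human TGF-β2. Each time point had 3 plates of sorted single cells, and no group was sorted on GFP. Bulk RNA-seq covered Achilles tendons of 2-week-old mice, 2 Wt and 2 *Scx* homoKO samples. The allele of the homoKO mice was not given in the sources used here, nor was the number of animals behind a sample. Nothing says that the 3 plates of a time point came from separate cultures, so their spread may be technical.

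Unique molecular identifiers (UMIs), each of which tags 1 captured RNA molecule, were counted at the 3′ end in 4594 wells, of which T0 had 1147, T3 1151, T6 1149, and T9 1147. The plates held between 1921125 and 4657093 UMIs, and levels are given as CPM, a gene's UMIs among 1000000 UMIs of the plate. In 7 plates (all of T0, T3 plate 2, T6 plates 1 and 3, and T9 plate 3) more reads fell outside annotated genes, per the study's mapping summary, and the median number of genes per cell was 2508 to 3855. In the other 5 plates it was 1212.5 to 2431. T0 had plates of the first kind only, so within them T0 can be set against 1 plate of T3, 2 of T6, and 1 of T9. *Scx*, the transcription factor of tendon progenitors, rose from T0 to T3 by 6.52 ± 0.35 (log2, SE; adjusted p = 2.02e-08).

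Basement membranes are thin sheets of extracellular matrix that lie under epithelia and around endothelial, muscle, fat, and Schwann cells. Laminins, each a trimer of an α, a β, and a γ chain, form one network at the cell surface, and collagen IV, most often a trimer of α1(IV) and α2(IV) chains, forms another. Nidogens and perlecan link the networks. Parietal endoderm, which lines the yolk sac of the rodent embryo, lays down a very thick basement membrane. The tendon fiber itself is made of interstitial collagens, and tendon holds basement membrane chiefly at its sheath, vessels, nerves, and the junction with muscle.

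The pair *Col4a1* (chr8:11198423-11312826, minus strand) and *Col4a2* (chr8:11312805-11449287, plus strand; GRCm38) lie head to head, and the annotated 5′ ends of the genes share 22 bases. The stretch in which both begin is shown because it holds the annotated starts of both genes, at opposite ends of the shared bases. It is given on the plus strand, the reading direction of *Col4a2*, from the RefSeq promoter windows of both genes (GRCm38.p6, chr8:11312801-11312830), with the 22 shared bases in capitals.
Col4a1/Col4a2 start sites: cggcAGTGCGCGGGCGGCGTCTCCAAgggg
The capitals hold a GC box (GGGCGG). Of the 10 genes, 6 had a promoter window in the RefSeq table (250 bases before to 50 after the start), and GGGCGG or its complement was found in all 6 (*Col4a1*, *Col4a2*, *Lama5*, *Lamb1*, *Nid1*, *Hspg2*), against 35.9% of 27025 windows. A TATA box (TATAAA, either strand) was found in 0 of the 6, against 14.2% of all windows. The SMAD box (CAGAC, either strand) was found in 3 of the 6, against 49.7%. The CCAAT box was found in 4 of the 6, against 37.9%, and the E-box (CANNTG) in 2, against 72.1%. The windows of *Col4a1* and *Col4a2* overlap, and the GC box in the shared bases counts for both. These matches are descriptions of letters only.

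The other genes lie apart. In GRCm38 they are *Lama1* at chr17:67697259-67822647, *Lama4* at chr10:38965515-39110188, *Lama5* at chr2:180176373-180225859, *Lamb1* at chr12:31265234-31329644, *Lamc1* at chr1:153218922-153332786, *Nid1* at chr13:13437551-13512269, *Nid2* at chr14:19751265-19811787, and *Hspg2* at chr4:137468769-137570630. *Nid2* shares 437 exon bases with *Rtraf* on the opposite strand and *Nid1* shares 143 with an antisense transcript, and the strand setting of the counting was not given in the sources used here.

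*Col4a1*, the α1 chain of collagen IV, was at 35.2, 44.9, and 44.1 CPM in the 3 plates of T0 and at 34.9, 49.0, and 36.2 CPM at T3. It was at 183, 64.0, and 163 CPM at T6 and at 189, 152, and 201 CPM at T9. Every T6 and T9 plate was above every T0 and T3 plate. *Col4a1* rose from T3 to T6 by 1.75 ± 0.26 (log2, SE; adjusted p = 0.00177) and stood 2.61 ± 0.26 higher at T9 than at T0, a 6.12-fold difference (adjusted p = 2.37e-06).

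*Col4a2*, the partner chain, was at 37.1, 56.5, and 50.9 CPM at T0 and at 47.4, 88.8, and 39.4 CPM at T3. It was at 228, 101, and 198 CPM at T6 and at 188, 149, and 269 CPM at T9. The T0 and T3 plates overlapped, and all 6 later plates lay above them. The gene rose by 1.60 ± 0.26 from T3 to T6 (log2; adjusted p = 0.00336) and by 2.52 ± 0.27 from T0 to T9 (adjusted p = 4.8e-06). Per captured molecule there were 0.552 to 1.02 UMIs of *Col4a1* for each UMI of *Col4a2* over the 12 plates, with a median of 0.813. Among all 13372 tested genes *Col4a2* was the second most like *Col4a1* over the 12 plates (Pearson r = 0.969 of log2(CPM + 1), a description over plates that share time point and depth). The first was *Arsi* (r = 0.981) and the third *Srpx2* (r = 0.969).

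*Lama1*, the α chain of laminin-111 and of early embryonic basement membranes, was at 28.8, 32.2, and 33.6 CPM at T0. At T3 it was at 0, 9.95, and 2.79 CPM, below every T0 plate. At T6 it was at 119, 7.64, and 97.5 CPM, and at T9 at 57.0, 87.0, and 72.6 CPM. The T6 plates spanned a range so wide that plate 2 lay among the T3 plates, whereas all T9 plates were above all T0 plates. *Lama1* fell by 2.62 ± 0.78 from T0 to T3 (log2; adjusted p = 0.0189), then rose by 4.02 ± 0.77 from T3 to T6 (adjusted p = 0.00859), and was 1.69 ± 0.61 higher at T9 than at T0 (adjusted p = 0.035). The first call was lost without T3 plate 1 (adjusted p = 0.0585) or 3 (0.0757), the second without T3 plate 3 (0.0514) and in the 6 plates alone (0.0569), and the third under DESeq2 (0.163) and without any 1 of 5 of the 6 plates (0.0613 to 0.105). As described further on, the rise at T6 and T9 was carried by a few cells.

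*Lama4*, the α chain of laminins of mesenchyme, vessels, and fat, was at 11.2, 11.8, and 13.7 CPM at T0 and at 17.7, 29.5, and 20.9 CPM at T3. It was at 72.7, 29.3, and 81.1 CPM at T6 and at 74.4, 40.5, and 103 CPM at T9. All T3 plates lay above all T0 plates, T6 plate 2 lay within the T3 range, and all T9 plates were above both. *Lama4* rose by 1.11 ± 0.31 from T0 to T3 (log2; adjusted p = 0.0156), by 1.41 ± 0.30 from T3 to T6 (adjusted p = 0.0142), and by 3.03 ± 0.31 from T0 to T9, 8.15-fold (adjusted p = 3.21e-06). The T3 call was lost without T0 plate 1 (adjusted p = 0.0557), and the T6 call without T3 plate 1 or 3 or T6 plate 1 or 3 (0.0629 to 0.0781) and in the 5 plates with fewer reads outside genes (0.74, adjusted p = 0.325). The genes most like it over the plates were *Ssh3* (r = 0.988), *Lrrn2* (r = 0.971), and *Igfbp4* (r = 0.969).

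*Lama5*, the α chain of most adult epithelial and vascular basement membranes, was low from the start. It was at 6.44, 5.09, and 5.65 CPM at T0, 2.08, 2.95, and 2.09 CPM at T3, 3.33, 0.955, and 1.90 CPM at T6, and 1.09, 1.61, and 1.33 CPM at T9. These are 21 to 30 UMIs a plate at T0 and 4 or 5 at T9, and every later plate was below every T0 plate. It fell from T0 to T9 by 1.58 ± 0.49 (log2; adjusted p = 0.0165), and it was lost without T0 plate 1 or 3 or T9 plate 1 or 3 (adjusted p 0.0501 to 0.0577) and without the filter on low counts (0.0605).

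*Lamb1*, the β1 chain, was at 91.3, 88.9, and 94.98 CPM at T0, 55.2, 118, and 66.5 CPM at T3, 225, 89.7, and 255 CPM at T6, and 168, 194, and 319 CPM at T9. *Lamc1*, the γ1 chain that nearly all laminins contain, was at 54.1, 47.7, and 45.7 CPM at T0, 26.03, 61.9, and 43.6 CPM at T3, 169.7, 62.4, and 161 CPM at T6, and 91.3, 125, and 194 CPM at T9. For both, the T0 plates lay inside the wide T3 range, T6 plate 2 was far below the other T6 plates, and all T9 plates were above all T0 plates. From T0 to T9 *Lamb1* rose by 1.75 ± 0.26 (log2; adjusted p = 9.59e-05) and *Lamc1* by 1.92 ± 0.27 (adjusted p = 6.03e-05). From T3 to T6 *Lamc1* rose by 1.57 ± 0.27 (adjusted p = 0.005) and *Lamb1* by 1.25 ± 0.26 (adjusted p = 0.0137). The *Lamb1* call was lost without T3 plate 1 or 3 or T6 plate 1 or 3 (adjusted p 0.0635 to 0.0781), in the 6 plates alone (0.077), and in the plates with fewer reads outside genes (0.70, adjusted p = 0.104). There were 1.32 to 2.12 UMIs of *Lamb1* for each of *Lamc1* over the 12 plates, and of the pairs among the 10 genes they had the highest correlation over plates (r = 0.979).

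*Nid1*, which bridges laminin and collagen IV, was at 39.5, 35.2, and 44.9 CPM at T0 and at 138, 237, and 167 CPM at T3. It was at 259, 175, and 268 CPM at T6 and at 187, 163, and 299 CPM at T9. All 9 treated plates stood above the T0 plates and overlapped each other across time points. *Nid1* rose by 2.38 ± 0.19 from T0 to T3, 5.22-fold (log2; adjusted p = 4.74e-07), had a difference of 0.40 ± 0.17 from T3 to T6 that did not pass (adjusted p = 0.234), and was 2.89 ± 0.19 higher at T9 than at T0 (adjusted p = 4.08e-08). Its most alike genes were *Fgf11* (r = 0.994), *Xbp1* (r = 0.992), and *Sulf1* (r = 0.991). The other nidogen, *Nid2*, stayed between 0.521 and 9.62 CPM in all 12 plates, and its T9 to T0 difference of 0.84 ± 0.54 did not pass (adjusted p = 0.217).

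*Hspg2*, perlecan, was at 18.9, 10.7, and 12.6 CPM at T0, 1.04, 29.5, and 5.23 CPM at T3, 27.4, 6.36, and 21.9 CPM at T6, and 7.33, 8.99, and 36.8 CPM at T9. Its levels followed the kind of plate: the 4 treated plates with more reads outside genes had 21.9 to 36.8 CPM and the 5 with fewer had 1.04 to 8.99 CPM. Over all plates the T9 to T0 difference was 0.70 ± 0.66 (log2; adjusted p = 0.408). With the kind of plate as a covariate it was 1.69 (adjusted p = 0.000359), and within the 7 plates of one kind 1.55 ± 0.27 (adjusted p = 0.000411), so the *Hspg2* result depends on how the kind of plate is treated.

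**Figure D1:**
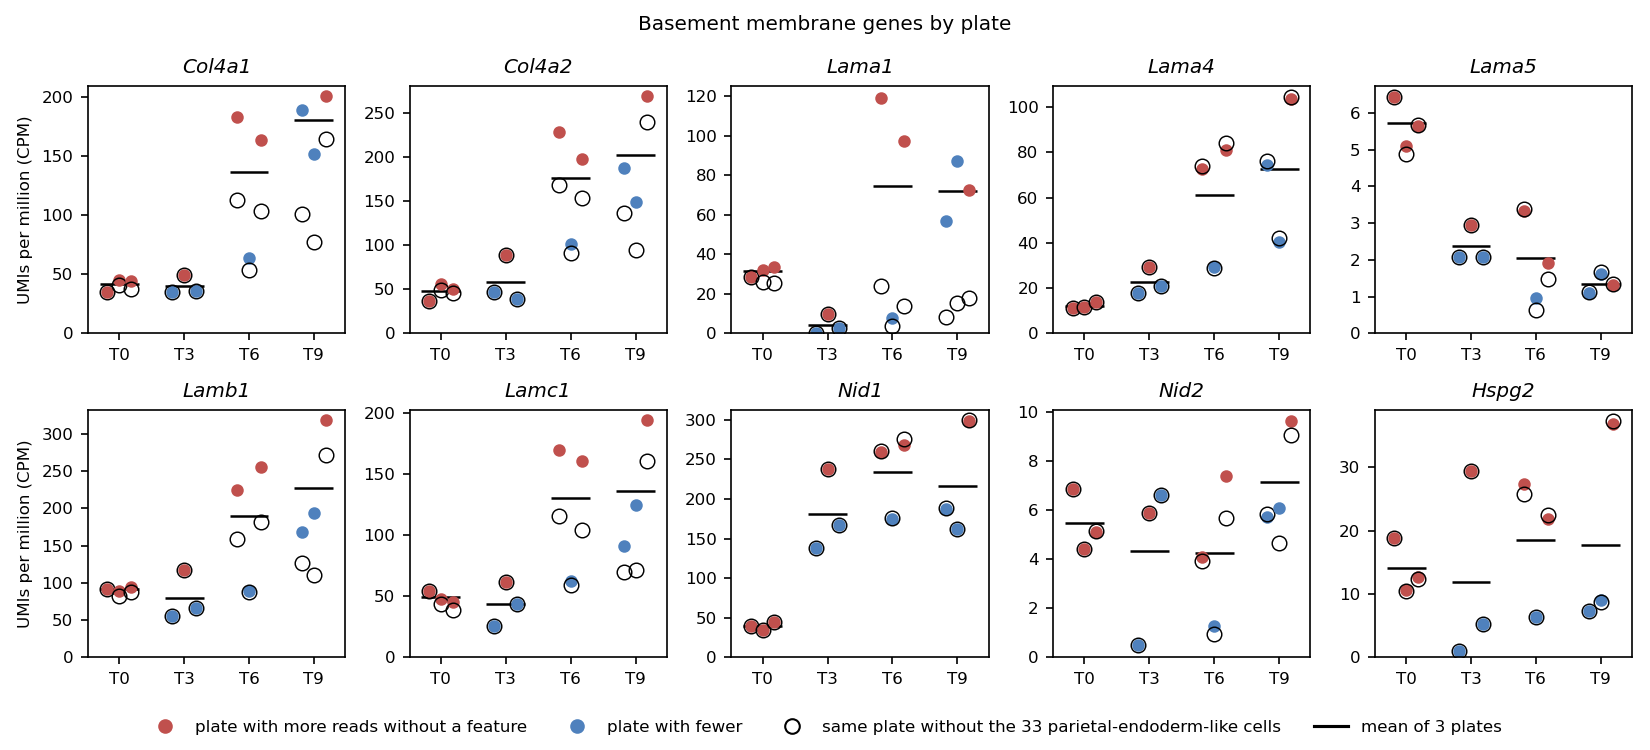
Each panel plots one gene's CPM (linear axis from 0) in the 3 plates of T0, T3, T6, and T9, with the kind of plate by colour, the mean as a bar, and open circles for the same plate without the 33 parietal-endoderm-like cells. *Nid1* stands higher from T3 on, and for *Lama1* the open circles at T6 and T9 (3.54 to 24.0 CPM) lie below the T0 plates (25.4 to 28.8 CPM).

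Of the 10 genes, 2 were called higher and 1 lower at T3 than at T0, where 17% of all tested genes were called higher and 16.2% lower. From T3 to T6, 6 were called higher against 2.61% of all genes, and 0 lower against 1.63%; DESeq2 also called 6 and 0, and 7 genes had an unadjusted p under 0.05. The count was 3 without T3 plate 3 and 4 without T3 plate 1, T6 plate 1, or T6 plate 3. The median log2 fold change was 1.33 over the 10 genes and 0.03 over all tested genes. From T6 to T9 edgeR called 0 of the 10 and DESeq2 0 of the 9 that it gave an adjusted p, against 1.62% of all genes, and 1 (*Col4a1*) had an unadjusted p under 0.05. Between T0 and T9, 7 were called higher against 23.6% and 1 lower against 21.6%, with a median of 1.84 over the 10 and -0.02 over all genes. The comparisons share plates (those of T0 in the first and last), so their counts are not independent. The counts at an unadjusted p under 0.05 stand without the share of all genes at that threshold. The T6 to T9 count was not stable to the kind of plate. With it as a covariate 3 genes (*Col4a1*, *Col4a2*, *Lamb1*) were called higher, and 3 (*Col4a1*, *Lama1*, *Lamb1*) within the plates with fewer reads outside genes, where T6 plate 2 was the only T6 plate.

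The cells were clustered without the 10 genes and 39 related genes in the table. One of 14 clusters held 33 cells, led by *Srgn*, *Sox17*, *Foxq1*, *Gata4*, *Podxl*, *Ctsh*, *Spink1*, *Hs3st1*, *Lrp2*, and *Tfpi*. All 10 parietal endoderm markers were detected in at least 10% of its cells and 8 were highest there. All 7 epithelial markers were detected in it as well, 2 of them highest there. Of 10 endothelial markers, 3 were detected in it and 3, not necessarily the same ones, were highest there. These parietal-endoderm-like cells numbered 3 among the T0 cells, 0 among T3, 11 among T6, and 19 among T9, at most 8 in a plate, and they held 1.11% to 3.63% of the UMIs of the T6 and T9 plates. They came from both kinds of plate, and the same 33 cells formed 1 cluster in each of the 3 alternative clusterings. The study described a cluster of its own with *Srgn*, *Tfpi*, and basement membrane genes as apparently endothelial. Whether those are the same cells was not tested. The 10 parietal endoderm markers summed to 176 to 220.4 CPM in the T0 plates, 223 to 301 CPM in T3, 370.03 to 547 CPM in T6, and 496 to 553 CPM in T9, with *Sox17* and *Gata4* at 0 in every T3 plate.

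These few cells held most of the *Lama1* RNA. At T6 they had 740 of 900 *Lama1* UMIs, 82.2% (exact 95% interval 79.6% to 84.7%, counting error only), and at T9 571 of 700, 81.6% (78.5% to 84.4%). Over T6 and T9 together *Lama1* stood at 2644 CPM in them and at 14.1 CPM in all other cells. The same was seen plate by plate: the cells' share was 80.3%, 54.2%, and 86.1% in the 3 plates of T6 and 85.7%, 83.0%, and 75.8% in those of T9. T6 plate 2, with the low *Lama1* level, had 1 such cell.

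The 2 collagen IV chains, *Lamb1*, and *Lamc1* were also high in these cells, but less of their RNA was there. Over T6 and T9 the cells held 37.7% of the *Col4a1* UMIs, 24.2% of the *Col4a2* UMIs, 27.4% of the *Lamb1* UMIs, and 29.7% of the *Lamc1* UMIs. Their levels were 2567 CPM for *Col4a1*, 1956 CPM for *Col4a2*, 2436 CPM for *Lamb1*, and 1702 CPM for *Lamc1*, against 102, 148, 156, and 97.3 CPM in all other T6 and T9 cells. Each of these 4 genes and *Lama1* was higher in the parietal-endoderm-like cells in all 6 plates.

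*Nid2* was also higher in these cells over T6 and T9, at 34.3 CPM on 17 UMIs against 5.01 CPM elsewhere, in 5 of the 6 plates, and they held 14.2% of its UMIs (exact 95% interval 8.47% to 21.7%). *Hspg2* was at 24.2 CPM on 12 UMIs against 18.1 CPM, higher in 3 of the 6 plates, and *Lama5* at 6.05 CPM on 3 UMIs against 1.65 CPM. *Lama4* and *Nid1* stood lower. *Lama4* had 2 of its 1429 UMIs in these cells, 0.140% (exact 95% interval 0.0170% to 0.505%), and *Nid1* 1.42%, at 137 CPM against 229 CPM elsewhere. At T6 and T9 the α chain counted in the parietal-endoderm-like cells was thus mainly *Lama1*, and *Lama4* had more UMIs than *Lama1* in the remaining cells.

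Per cell, *Col4a1* and *Lamb1* were found in 33 of 33 parietal-endoderm-like cells and *Lama1*, *Col4a2*, and *Lamc1* in 32. The median cell had 29 UMIs of *Lama1*, 31 of *Col4a1*, and 33 of *Lamb1*, and the highest 288, 168, and 242. Among the 2250 other T6 and T9 cells outside the pluripotent-like cluster, *Lama1* was found in 8.22% and its highest count was 8. The median depth was 13565 UMIs in the former and 8263 in the latter. When all cells were thinned to 3000 UMIs, *Lama1* was found in 97.0% of the 33 cells and in 3.17% of 2146 others, *Col4a1* in 90.9% and 22.9%, and *Lama4* in 0% and 15.9%. Whether free RNA contributes to the *Lama1* UMIs of the other cells was not tested.

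**Figure D2:**
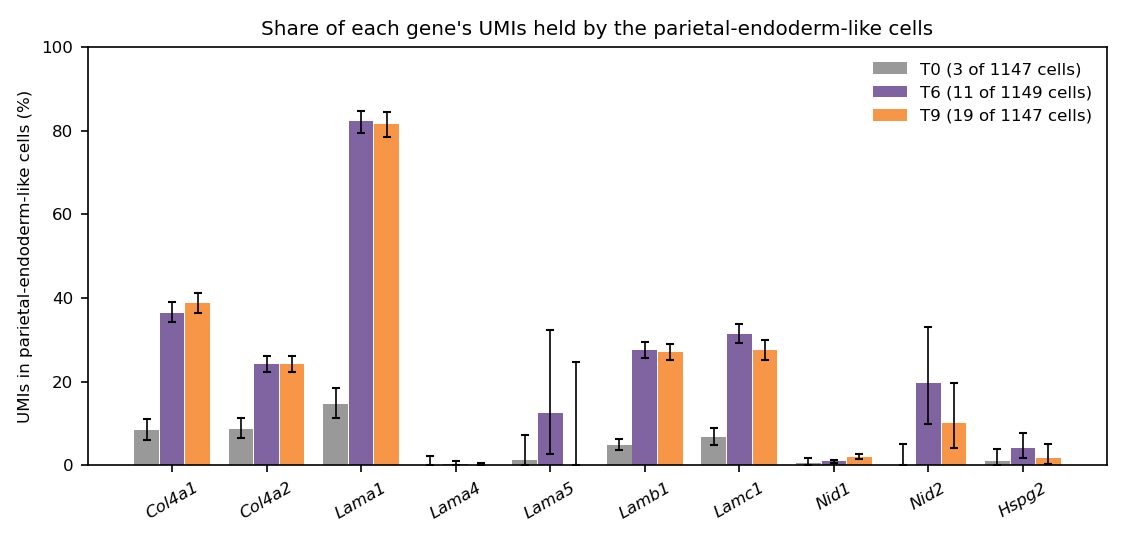
Bars give the percent of each gene's UMIs found in the parietal-endoderm-like cells at T0, T6, and T9 (none were present at T3), with exact 95% intervals for counting error. *Lama1* reaches 82.2% at T6 and 81.6% at T9, and *Lama4* and *Nid1* stay at or under 2.00%.

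Without the 33 cells, *Lama1* was at 28.8, 26.02, and 25.4 CPM at T0, 0, 9.95, and 2.79 CPM at T3, 24.0, 3.54, and 14.0 CPM at T6, and 8.36, 15.3, and 17.8 CPM at T9. All T9 plates then lay below all T0 plates. The T9 to T0 difference turned from 1.69 to -0.49 (log2; adjusted p = 0.469), and the T3 to T6 difference went from 4.02 to 1.66 (adjusted p = 0.163). The fall from T0 to T3 was called here too, at -2.41 (adjusted p = 0.00803). For the other genes the change was of size rather than direction. The T9 to T0 difference of *Col4a1* went from 2.61 to 2.05 (adjusted p = 3.5e-06), that of *Col4a2* from 2.52 to 2.27 (adjusted p = 1.08e-05), that of *Lamb1* from 1.75 to 1.39 (adjusted p = 0.00038), and that of *Lamc1* from 1.92 to 1.58 (adjusted p = 0.000148), whereas *Lama4* was at 3.06 and *Nid1* at 2.91. Between T3 and T6 *Lamb1* was no longer called (0.87, adjusted p = 0.0642). In these fits 4 of the 10 were called higher from T3 to T6, against 2.63% of all genes, and 6 from T0 to T9, against 23.9%. The parietal-endoderm-like cells were left out after their levels had been seen.

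**Figure D3:**
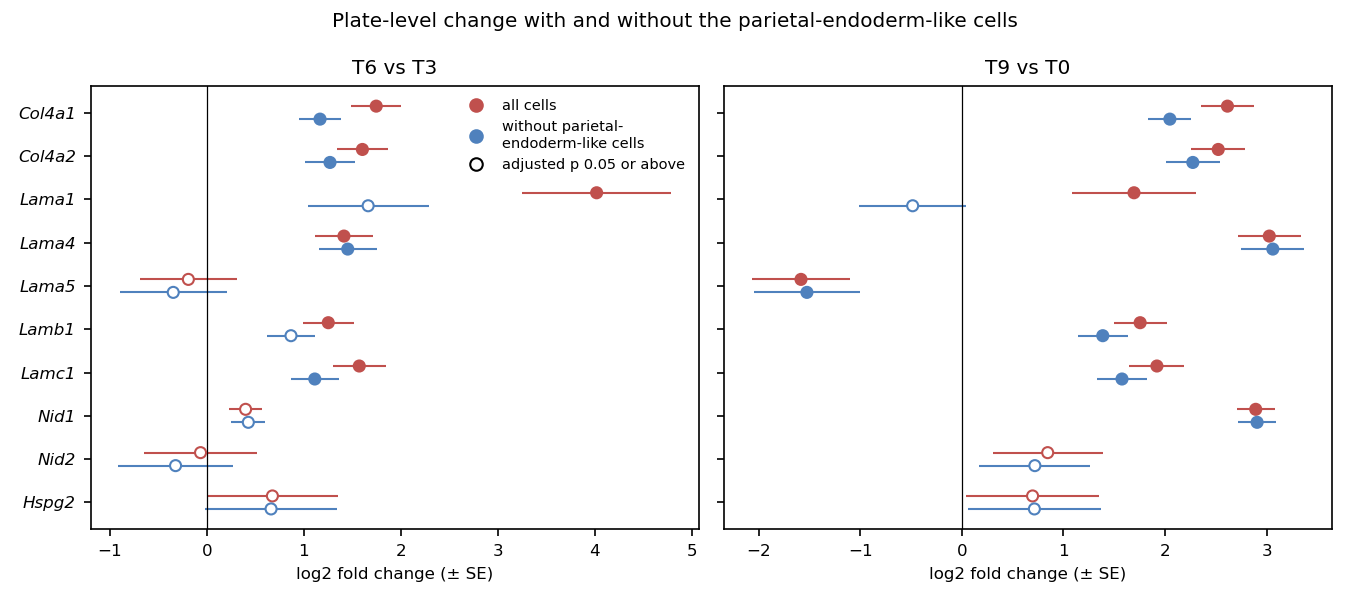
Log2 fold changes (points, with SE bars) from edgeR over plates for T6 against T3 and T9 against T0, with all cells in red and without the parietal-endoderm-like cells in blue. Filled points have an adjusted p under 0.05, and at T9 against T0 *Lama1* moves from 1.69 to -0.49 when the cells are left out.

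The share of each α chain among all laminin α UMIs of a plate does not depend on the scaling of that plate. At T0 *Lama1* made up 58.0% ± 0.826 (SD, n = 3) of the α chain UMIs, *Lama4* 22.5% ± 1.03, and *Lama5* 10.6% ± 1.91. At T3 *Lama4* made up 73.5% ± 5.95 and *Lama1* 10.9% ± 11.4, on 243 UMIs in all. *Lama4* then held 51.3% ± 19.7 at T6 and 46.9% ± 14.2 at T9, and *Lama5* 1.70% ± 0.684 and 0.906% ± 0.266. Comparing the 3 T0 plates with the 9 treated plates, the *Lama4* share was 34.7 percentage points higher under treatment and the *Lama5* share 7.15 points lower, each with an exact two-sided permutation p = 0.00909, the smallest these plates can give (adjusted over 4 shares, 0.0182). All 9 treated plates lay above the T0 plates for *Lama4*. The *Lama1* share was 23.5 points lower (adjusted p = 0.17, exact permutation test), and that of *Lama2* 1.60 points lower (adjusted p = 0.345, exact permutation test). With all cells of the 7 plates of one kind, 3 against 4, the *Lama4* difference was 28.4 points, and the smallest p such a test can give is 0.0571 (exact permutation, two-sided), so no share could pass there.

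Without the parietal-endoderm-like cells *Lama4* was the leading α chain of every treated plate. It held 24.8% ± 2.68 of the α chain UMIs in the T0 plates, 73.5% ± 5.95 in T3, 77.9% ± 7.17 in T6, and 76.9% ± 8.83 in T9 (SD, n = 3). *Lama1* held 54.0% ± 3.23, 10.9% ± 11.4, 15.4% ± 6.42, and 15.7% ± 7.87. Both shares then differed between T0 and the treated plates by the smallest p these plates allow (exact permutation p = 0.00909, adjusted 0.0121), by 51.3 points for *Lama4* and 40.0 points for *Lama1*.

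**Figure D4:**
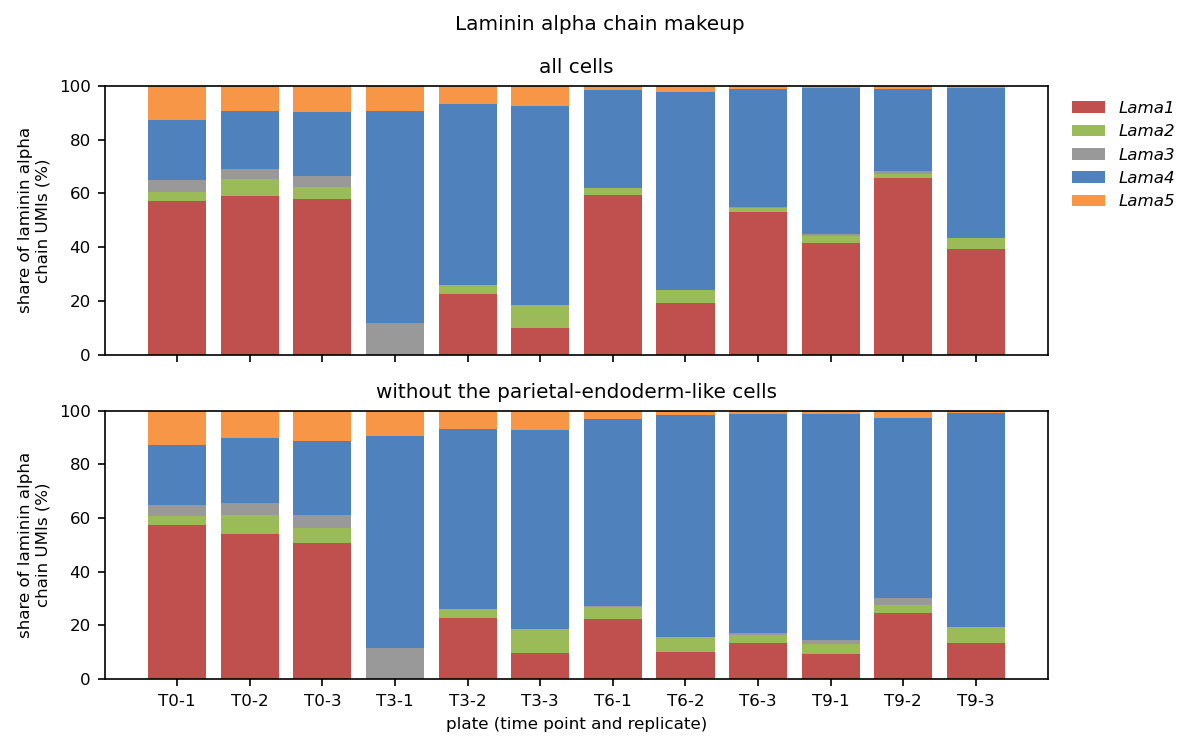
Stacked bars give the percent of laminin α chain UMIs that belonged to *Lama1* to *Lama5* in each of the 12 plates, above for all cells and below without the parietal-endoderm-like cells. *Lama1* holds 57.3% to 58.9% in the T0 plates, and *Lama4* holds 67.0% to 84.0% in every treated plate of the lower panel.

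Among the remaining clusters, *Lama4*, *Nid1*, *Col4a1*, and *Col4a2* had their highest levels outside the parietal-endoderm-like cells in the same cluster, at 93.2, 291, 139, and 208 CPM. Its 468 cells, 136 of them from T6 and 329 from T9, were led by *Eln*, *Thbs2*, *Col1a1*, *Inhba*, and *Thbs4*, and 97.9% came from plates with more reads outside genes. Of 10 tenocyte markers, 9 were detected in at least 10% of these cells and 4 were highest there. The cluster of 347 cells led by *Tnmd*, *C1qtnf3*, and *Fabp4* had all 10 detected and 5 highest. In it *Lama4*, *Nid1*, *Col4a1*, and *Col4a2* were at 60.9, 150.17, 123, and 153 CPM. Of its cells, 2.88% came from plates with more reads outside genes. Cluster and kind of plate therefore cannot be told apart in this pair. These levels are descriptions of pooled cells.

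*Lama5* had another source. At T0 the 117 cells of an epithelial-like cluster, led by *Krt18*, *Krt7*, and *Cldn6*, held 34 of 73 *Lama5* UMIs, 46.6%, with 11.9% of all UMIs, and the 64 pluripotent-like cells held 17, 23.3%. *Lama5* was at 22.4 CPM in the former, 13.5 CPM in the latter, and 2.12 CPM in the 963 remaining T0 cells. In the 3 plates the epithelial-like cells had 17.7, 19.0, and 35.8 CPM against 4.52, 3.38, and 2.39 CPM in the others. The 7 epithelial markers together fell from 413 to 527 CPM at T0 to 19.3 to 129 CPM in the treated plates, and 7 of 7 were called lower at T3 and 5 of 7 at T9. *Hspg2* at T0 also stood higher in the epithelial-like cells, at 41.6 CPM against 9.61 CPM in the remaining cells. What part the loss of these cells had in the fall of *Lama5* was not tested.

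The share of cells in which a gene was found depends on depth, so it is given with and without thinning. *Nid1* was found in 25.5% ± 3.44 of T0 cells, 50.1% ± 19.1 of T3 cells, 73.0% ± 12.2 of T6 cells, and 66.4% ± 8.63 of T9 cells (SD, n = 3 plates). After each cell was thinned to 3000 UMIs, it was found in 9.44% ± 0.785, 34.6% ± 10.6, 47.2% ± 10.4, and 41.5% ± 11.3 of the cells of these groups. *Lama4* was found in 3.74% ± 0.367 of thinned T0 cells, 5.32% ± 2.55 at T3, 13.8% ± 5.50 at T6, and 17.4% ± 5.94 at T9. Thinning left out 76, 113, 68, and 36 cells of the 4 time points. The test of the shares pooled the T3, T6, and T9 plates, so it does not describe changes among them. *Col4a1*, for example, was found in 26.3% of T0 cells, 16.9% at T3, 42.3% at T6, and 48.5% at T9 without thinning. Between T0 and the treated plates none of the 10 shares passed after adjustment over the 10 genes (lowest adjusted p = 0.0606, exact permutation test), while *Lama1*, *Lama5*, and *Nid1* had an unadjusted p of 0.0182, 0.00909, and 0.0182. Of these, *Nid1* was found in 37.7 points more of the treated cells, and *Lama1* and *Lama5* in 11.1 and 3.29 points fewer. After thinning these differences were 31.6, 3.21, and 0.492 points. The shares passed for these 3 genes where at least 2 UMIs were asked for (adjusted p = 0.0303, exact permutation test) and for none after thinning. Thinned *Nid1* had the smallest p that these plates can give (exact permutation p = 0.00909, adjusted 0.0909). A single gene at that p cannot pass over 10 genes. It was found in 8.56% to 10.1% of thinned cells in the T0 plates and in 23.9% or more in every treated plate.

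At T9 the cells with a UMI of *Tnmd*, a marker of mature tenocytes, were compared with the rest of their plate, leaving out the parietal-endoderm-like and pluripotent-like cells. *Col4a1* was at 135, 137, and 285 CPM in cells with *Tnmd* and at 94.9, 73.5, and 149 CPM in cells without, higher in all 3 plates. *Col4a2* and *Lamc1* were also higher with *Tnmd* in 3 of 3 plates, at means of 226 and 136 CPM against 148 and 93.3 CPM. *Hspg2* differed little, at 7.85, 8.58, and 40.7 CPM with *Tnmd* and 6.96, 8.48, and 36.8 CPM without. *Nid1* was lower in 3 of 3, at 203 against 222 CPM. The cells with *Tnmd* numbered 36 to 73 a plate and were deeper (median 7695 to 9895 UMIs against 7029.5 to 8657.5). No test was made, and the share of all genes with the same direction in 3 of 3 plates is not given here. At T3, again with no test, *Nid1* and *Lamc1* were higher in the cells with an *Scx* UMI in 3 of 3 plates. The means were 189 and 44.9 CPM against 166 and 30.8 CPM.

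Of 39 related genes, 30 were tested in the plate sums, and 12 were called higher and 4 lower at T3 than at T0, against 17% and 16.2% of all tested genes. Between T0 and T9, 15 were higher and 2 lower, against 23.6% and 21.6% of all genes, with a median log2 fold change of 1.14 against -0.02 over all genes. Among the other collagen IV chains, only *Col4a5* passed the filter, and it rose from T0 to T3 (2.11, log2; adjusted p = 6.44e-05), fell from T3 to T6 (-1.34, adjusted p = 0.0115, a call lost without T3 plate 3 or T6 plate 3, in the 6 plates alone, and within either kind of plate, at adjusted p 0.0509 to 0.207), and was 1.80 higher at T9 than at T0 (adjusted p = 0.000132). Among the other laminin chains, *Lamb2*, the β2 chain of muscle and kidney basement membranes, was 1.75 higher at T9 than at T0 (adjusted p = 7.03e-05), and *Lama2* did not pass between any of the time points compared (1.13 at T9 against T0, adjusted p = 0.152).

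Of 15 other basement membrane components tested, 8 were higher and 0 lower at T9 than at T0, the largest change being in *Col15a1*, a collagen found where basement membrane meets interstitial matrix (adjusted p = 2.62e-06). It had 0 UMIs in all T0 plates and 214 at T9, at least 92.3-fold higher against a floor of 3 UMIs over the T0 plates. *Col15a1* also rose from T3, with 1 UMI, to T6 (adjusted p = 0.0152) and from T6 to T9 by 2.73 (log2; adjusted p = 0.0146). The T3 to T6 call was lost without T3 plate 1 or 2 or T6 plate 1 (adjusted p 0.0551 to 0.058), and the T6 to T9 call without T6 plate 3 (0.0608) or T9 plate 1 (0.0749). At T3, 7 were higher, led by *Fbln2* (3.98, adjusted p = 2.01e-06), and *Smoc1* was lower (-2.78, adjusted p = 0.00208). *Loxl2*, a lysyl oxidase that crosslinks collagen IV, was 2.03 higher at T9 than at T0 (adjusted p = 4.56e-05). Among 9 tested receptors, 3 were higher and 2 lower at T9, against 23.6% and 21.6% of all genes. *Itga1*, the α chain of a collagen IV receptor, was the most increased (1.42, adjusted p = 0.00091), and *Itga6*, the α chain of laminin receptors, the most decreased (-1.85, adjusted p = 6.93e-05). The epithelial markers fell over the same interval, as given above, and their part in the *Itga6* fall was not tested.

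The tendon samples showed how these genes stand in tissue. The Wt samples held 11188270 and 12257464 counts and the homoKO samples 12398560 and 11779228. *Scx* was at 103 and 81.3 CPM in Wt and at 23.1 and 25.1 CPM in homoKO, lower by 1.88 on the log2 scale (adjusted p = 0.000429), and *Tnmd* at 1460 and 1257 CPM against 268 and 264 CPM. The tissue was a mixture, and the libraries differed in it. The 6 Schwann and nerve markers summed to 1178 and 1101 CPM in Wt, 7429 CPM in homoKO sample 1, and 305 CPM in homoKO sample 2. The 10 endothelial markers summed to 1131 and 1065 CPM in Wt and to 815 and 641 CPM in homoKO, with *Kdr* and *Tek* called lower. The 5 adipocyte markers summed to 1073 to 2437 CPM and 343 to 668 CPM, and the 7 skeletal muscle markers to 32739 to 58074 CPM and 75962 to 79514 CPM. The 10 tenocyte markers summed to 153364 to 166388 CPM in Wt and 72757 to 83762 CPM in homoKO, with 6 called lower. For the 6 chondrocyte markers it was 1155 to 1310 CPM and 280 to 306 CPM, with 4 called lower. For the 8 smooth muscle and pericyte markers it was 1267 to 1780 CPM and 777 to 962 CPM, with 1 called lower. Fewer cells of a type and less RNA per cell cannot be told apart in such samples, and the part of these cells in the values that follow was not tested.

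By RPKM, the CPM of a gene divided by its exon length in kilobases, the order of the 10 genes in Wt tendon was *Col4a1* (167 ± 0.283, SD, n = 2), *Col4a2* (136 ± 0.618), *Hspg2* (78.8 ± 0.657), *Nid1* (71.2 ± 12.4), *Lamc1* (48.2 ± 2.69), *Lamb1* (26.9 ± 2.17), *Lama4* (14.9 ± 1.17), *Nid2* (11.3 ± 0.300), *Lama5* (6.41 ± 0.826), and *Lama1* (0). *Hspg2* and *Nid1* overlapped between samples, and no other neighbours did. *Lama2*, the α chain of muscle and Schwann cell laminin, stood at 8.13 ± 0.561 between *Nid2* and *Lama5*. *Lama1* had 0 reads in 3 samples and 2 in homoKO sample 1, so it was not tested, and no fold is given. *Lama1* thus had the lowest level in tendon, where the untreated T0 cells had it as the leading α chain. *Hspg2*, which was among the low genes at the 3′ end of the cultured cells, followed the collagen IV pair in tendon, although the assays count different parts of the message and their levels are not on one scale.

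In homoKO, none of the 9 tested members was called by edgeR or DESeq2, where 3.84% of all 14602 tested genes were called. By edgeR, 3 had an unadjusted p under 0.05 (*Lama5*, *Lamb1*, *Nid2*), and the median log2 fold change was 0.12 over the 9 genes and -0.00 over all genes. The share of all genes at that unadjusted threshold is not given here. *Lama5* was at 79.6 and 66.3 CPM in Wt and at 54.8 and 46.3 CPM in homoKO, a difference of -0.48 ± 0.16 (log2, SE; adjusted p = 0.145). *Lamb1* was at 282 and 252 CPM in Wt and at 408 and 323 CPM in homoKO, 0.50 ± 0.17 (adjusted p = 0.17). *Nid2* was at 59.8 and 57.6 CPM against 81.9 and 68.6 CPM, 0.40 ± 0.15 (adjusted p = 0.21). In each of these 3 the samples of the 2 groups did not overlap. That also held for *Lamc1*, *Hspg2*, *Col4a1*, and *Col4a2*, given next, so it does not set the 3 apart. The share of all tested genes without overlap is not given here.

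*Lamc1* was at 383 and 415 CPM in Wt and 460 and 560.5 CPM in homoKO (0.40 ± 0.19, adjusted p = 0.335), and *Hspg2* at 1121 and 1135 CPM against 1237 and 1285 CPM (0.21 ± 0.20, adjusted p = 0.657). *Col4a1* was at 1249 and 1246 CPM in Wt and 1083 and 1106 CPM in homoKO (-0.14 ± 0.20, adjusted p = 0.77). *Col4a2* was at 894 and 900.02 CPM and 877 and 859 CPM, *Nid1* at 555 and 433 CPM and 448 and 503 CPM, and *Lama4* at 190.3 and 170.3 CPM and 199 and 179.7 CPM, each with an adjusted p of 0.746 or more. The *Nid1* and *Lama4* samples overlapped between genotypes.

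**Figure D5:**
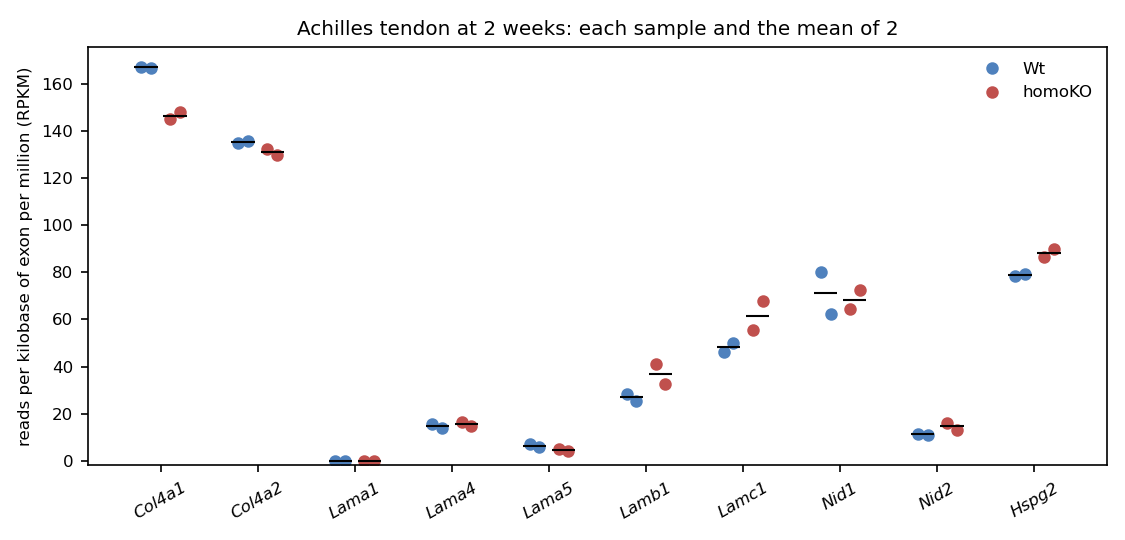
RPKM (linear axis) of the 10 genes in the 2 Wt and 2 homoKO Achilles tendon samples, with the mean as a bar. *Col4a1* and *Col4a2* are highest in both genotypes, and *Lama1* is at or near 0 in all samples. *Lamb1*, *Lamc1*, *Nid2*, and *Hspg2* lie higher and *Lama5*, *Col4a1*, and *Col4a2* lower in homoKO without passing the test.

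Of the 39 related genes, all were tested in tendon, and 2 were called higher and 2 lower in homoKO, where 3.84% of all tested genes were called in either direction. *Lama2* was at 126 and 139 CPM in Wt and at 245 and 247 CPM in homoKO, higher by 0.93 ± 0.16 (log2; adjusted p = 0.0121), and the call was made without any 1 sample too (adjusted p 0.00817 to 0.0396). The Schwann and nerve markers were at 7429 and 305 CPM in the homoKO samples. The skeletal muscle markers were higher in both homoKO samples than in Wt. The part of nerve or muscle in the *Lama2* difference was not tested. *Smoc2*, a calcium-binding matrix protein, was higher by 1.56 (adjusted p = 0.00114). *Loxl2* fell by 1.05 on the log2 scale (adjusted p = 0.0144), a call lost without homoKO sample 1 (adjusted p = 0.0752). The collagen receptor *Ddr2* fell by 0.69 (adjusted p = 0.045), a call lost without Wt sample 2 or either homoKO sample (adjusted p 0.0686 to 0.163).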

How the data were processed

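The authors deposited 2 count tables: UMI counts per gene and well (12 plates of 384 wells, CEL-Seq2) and read counts per gene for the 4 tendon samples. Per the labels, single-cell reads were aligned with HISAT2 2.2.1 and counted with featureCounts and UMI-tools 1.0.1, and bulk reads with HISAT2 2.0.4 and featureCounts 1.5.0, both to GRCm38. Wells with under 200 genes (14) and 3 entries without an Ensembl identifier (0.0642% of UMIs) were left out. The same 384 well barcodes serve every plate.

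UMIs were summed per plate, the plate being the replicate, and tested with edgeR 4.0.16 (TMM, filterByExpr, quasi-likelihood test, 1 fit over 12 plates) with Benjamini-Hochberg adjustment at 0.05 over all tested genes. Bulk counts were tested in the same way. A call is an adjusted p under 0.05. Fold changes are edgeR's. Each SE was derived from its test, as the absolute log2 fold change divided by the square root of the quasi-likelihood F. CPM and RPKM (exon union length, GENCODE vM21) are descriptive. Shares of cells and of laminin α UMIs were compared by exact two-sided permutation over plates (3 against 9). Cells were clustered with Seurat 5.3.0 (SCTransform, 2000 variable genes, 10 components, resolution 0.8), leaving out the 10 genes and 39 related ones. No doublet caller was run, since single cells were sorted into wells. The edgeR script was tested on simulated data with 200 genes changed 3-fold. It called 64.5% of them for T9 against T0, 66% for T6 against T3, and 68.5% for homoKO against Wt. False calls numbered 11, 6, and 21. A 3-fold change can therefore go uncalled.

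All 10 members were named with their levels over the time points and in tendon. For T9 against T6 the fold changes of single members are not given. Called genes of the related lists were named for some comparisons only, so a gene not named for a comparison may have been called in it. The 3 genes most like *Col4a1*, *Lama1*, *Lama4*, and *Nid1* were named (those of *Lama1*: *Cbr3*, *Il17ra*, *Suox*). A gene of the related lists is not reported here. The members and lists were chosen with earlier results of these data known. Alternatives covered the tool, the scaling, the filter, the replicate block, the kind of plate, the cells used, and each replicate left out. The kind of plate was taken from the study's mapping summary.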

Additional observations from a re-analysis of the deposited data

How the results depend on the processing

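Of the counts of called members and shares and the cluster result, 102 of 114 alternatives came within 1.5 times the value reported, and of the single fold changes and shares called, 282 of 327 had the same direction and side of the threshold, 43 lost the call, and 2 turned. The number of members called at T3 against T0 went from 3 to 4 with the kind of plate as a covariate and to 5 within the plates with more reads outside genes. At T9 against T6 it went from 0 to 3 with the covariate and to 3 within the plates with fewer such reads. With 2 choices changed together, the covariate and the pluripotent-like and parietal-endoderm-like cells left out, the counts were 6 and 5. These within-kind and combined fits were added after seeing the data. Leaving out 1 plate gave 2 to 3 members (T3 against T0), 3 to 6 (T6 against T3), 0 (T9 against T6), and 6 to 7 (T9 against T0), and 0 in the tendon samples. *Lama1* at T9 against T0 turned to -0.49 without the parietal-endoderm-like cells and to -0.59 without the pluripotent-like ones as well. Shares of cells passed for 0 of 10 genes, for 3 when at least 2 UMIs were asked for, and for 2 without both clusters. Laminin α shares passed for 2 of 4, and for 0 within the 7 plates of one kind, where no p can pass. Leaving out 1 plate gave 0 to 2, and it gave 0 when the plate left out was of T0, where 2 plates against 9 limit the p. The other causes were not tested. Same-numbered plates correlated in their deviations from the group means between -0.563 and 0.515, and the tendon samples at 0.0715. The kind of plate was not taken out of these deviations. With 2 tendon samples a group, both pairs give the same value by construction. Whether the numbers pair the samples therefore cannot be told from these values. With the replicate block 3, 6, 0, 7, and 0 members were called (T3 against T0, T6 against T3, T9 against T6, T9 against T0, homoKO against Wt), the loss at T9 being *Lama1* (adjusted p = 0.0577), and no other call of a member changed. Resolutions 0.6 and 1.0 and leaving out the fifth component gave 6 members highest in the parietal-endoderm-like cluster, as did the clustering reported. The depth limits *Lama5* and *Nid2*, with 3 to 30 and 1 to 32 UMIs a plate.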
